A study of Mus musculus with 3 samples.

Results

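Plasmacytoid dendritic cells (pDC) of the injured mouse kidney were selected on their counts of a few transcripts in droplet single-cell RNA-seq, and 180 of 48404 kept cells met the rule. A cell counted as pDC when it held at least 1 unique molecular identifier (UMI, one captured RNA molecule) of *Siglech*, at least 1 UMI of *Ccr9*, *Cox6a2* or *Ly6d*, at most 1 UMI of *C1qa*, *Cd3g* and *Cd79a* together, and at most 2 UMIs of the tubule transcripts *Lrp2*, *Slc34a1* and *Slc12a1* together. Aoah-/- mouse 2 gave 57 such cells, Aoah-/- mouse 3 gave 70 and WT mouse 3 gave 53. All values below are given in that order of mice. These cells carried 289646, 412356 and 313769 UMIs in all, with medians of 4965, 5955.5 and 5259 UMIs and 1884, 2133 and 1943 genes per cell, and 8.81%, 7.56% and 9.80% of their UMIs were mitochondrial.

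The kidneys came from mice labelled 6-8 weeks old, 14 days after folic acid (FA), a tubule toxin at high dose. The Aoah-/- mice lacked acyloxyacyl hydrolase, the enzyme that removes acyl chains from bacterial lipopolysaccharide (LPS), in the whole body, and the WT mouse was treated likewise. Whole kidneys were digested after perfusion, and the main text of the study describes no sorting. It leaves further details to supplementary materials, which were not read for this. Without an enrichment step, every kidney cell type could enter the libraries. The libraries held 25516, 24693 and 23072 barcodes with 167222984, 161015021 and 158551992 UMIs in all. Barcodes were kept at 1672 UMIs or more, the highest of the lowest totals of the 3 libraries, if they detected 200 genes or more and if mitochondrial UMIs did not exceed 50%, which left 15441, 19692 and 13271 cells with median totals of 5487, 3678 and 6389 UMIs. Pairs of libraries shared 172, 171 and 176 barcodes, and 0 of these were pDC in both libraries of a pair. A single WT library was analysed, so no difference between genotypes could be tested, and the Aoah-/- libraries give the spread between mice.

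pDC are bone marrow-derived cells that patrol blood and tissue, sense viral and self nucleic acids through the endosomal receptors TLR7 and TLR9, and can secrete large amounts of type I interferon. Their identity is set by the E protein TCF4 (E2-2), which acts with SPIB, BCL11A, RUNX2 and IRF8, and opposed by ID2, which favours conventional dendritic cells. A secretory endoplasmic reticulum and a modest antigen-presenting apparatus are textbook features of the resting cell.

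The genes that chose the cells are described first, without a test. *Siglech* (chr7:55768178-55778925, plus strand, mm10) encodes a sialic acid-binding receptor that signals through the adaptor TYROBP. Its level in pDC, in CPM (counts per 1000000, the UMIs of a gene per 1000000 UMIs of all pDC of a library), was 2009, 2461 and 1877, with a median of 10, 14 and 11 UMIs per cell. *Ccr9*, a receptor for the gut chemokine CCL25, was at 756, 1089 and 927 CPM, *Cox6a2*, a subunit of respiratory complex IV best known from muscle, at 1157, 1295 and 896 CPM, and *Ly6d*, a surface protein also made by B cells, at 2241, 1632 and 2505 CPM. The WT value was the lowest of the libraries for *Siglech* and *Cox6a2*, the highest for *Ly6d* and in between for *Ccr9*. All 3 of the second genes were detected in 40, 56 and 44 members, and only 1 of them in 2, 3 and 1.

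The 250 bases before the RefSeq start of the rule genes *Siglech* and *Ccr9*, and of the surface marker *Bst2* described next, are shown because each holds the letters CAGGTG, a form of the E-box that E proteins such as TCF4 can bind. The table held no promoter for the other rule genes, *Cox6a2* and *Ly6d*, and those of *Irf7* and *Spib*, also searched, held neither these letters nor the paired GAAA motif described next. Capitals mark CAGGTG or its reverse complement CACCTG and, in *Bst2*, also 2 overlapping matches of GAAA, any 2 bases and GAAA again, the core letters of an interferon-stimulated response element. Sequences are from RefSeq on GRCm38.p6, 5′ to 3′ on the gene's strand.
Siglech, chr7:55767934-55768183, plus strand: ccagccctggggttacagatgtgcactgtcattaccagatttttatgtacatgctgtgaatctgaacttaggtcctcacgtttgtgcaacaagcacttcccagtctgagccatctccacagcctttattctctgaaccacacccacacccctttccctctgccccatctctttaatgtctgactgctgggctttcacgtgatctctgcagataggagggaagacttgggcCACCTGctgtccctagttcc
Ccr9, chr9:123766961-123767210, plus strand: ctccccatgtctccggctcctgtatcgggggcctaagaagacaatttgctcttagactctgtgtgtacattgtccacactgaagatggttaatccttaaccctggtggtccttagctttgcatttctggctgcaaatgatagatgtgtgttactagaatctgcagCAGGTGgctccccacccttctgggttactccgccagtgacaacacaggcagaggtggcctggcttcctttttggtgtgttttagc
Bst2, chr8:71537473-71537722, minus strand: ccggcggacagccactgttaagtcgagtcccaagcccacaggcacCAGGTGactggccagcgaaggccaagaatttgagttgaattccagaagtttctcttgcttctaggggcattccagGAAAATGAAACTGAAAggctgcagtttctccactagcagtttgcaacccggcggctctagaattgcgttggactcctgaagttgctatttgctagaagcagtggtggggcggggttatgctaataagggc

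Counted back from the start site, the E-box letters stood at bases -20 to -15 in *Siglech*, -85 to -80 in *Ccr9* and -205 to -200 in *Bst2*, and the paired GAAA matches of *Bst2* at -130 to -121 and -124 to -115. On either strand, CAGGTG was present in 17.1% of the 27025 promoters of the same length in the table, and in 4 of the 19 matched promoters of the 24 pDC markers outside the rule (*Bst2*, *Cd300c*, *Klk1* and *Tlr9*). Other sets lay below that background: 13.3% (2 of 15) of the 25 genes ranked highest in pDC below and 14.3% (3 of 21) of dendritic transcription factors. Of the interferon-induced genes, 8.57% (3 of 35) held it. The paired GAAA motif was present in 3.04% of all promoters and in 17 of the 35 matched promoters of the 48 listed interferon-induced genes. These are matches of letters, and binding was not measured.

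**Figure D1:**
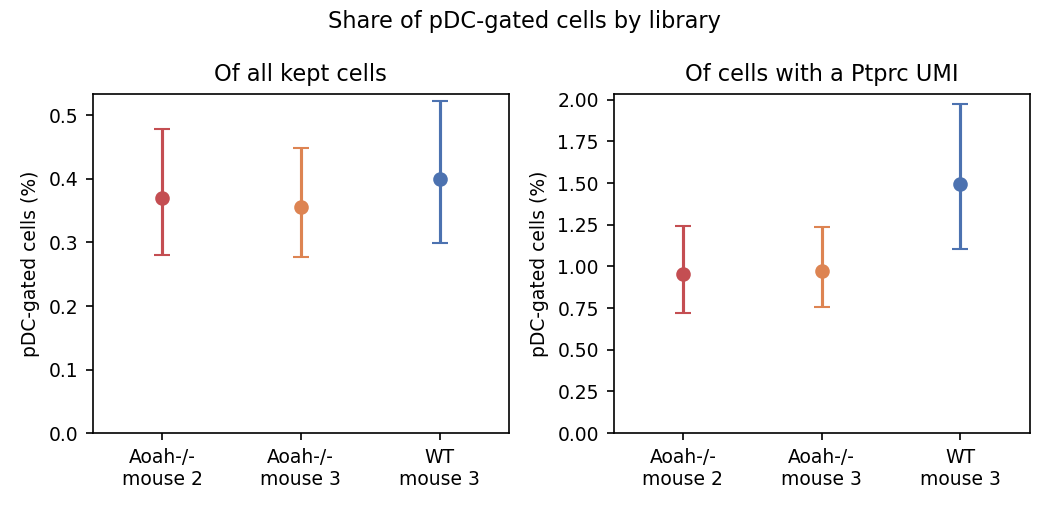
Share of pDC-gated cells in each library, as a percentage of kept cells (left) and of kept cells with at least 1 *Ptprc* UMI (right). Points are the shares and whiskers are exact Clopper-Pearson 95% intervals for counting error. The intervals of the 3 libraries overlap in both panels, and the WT point is the highest in both.

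pDC made up 0.369% (95% interval 0.280 to 0.478) and 0.355% (0.277 to 0.449) of the kept cells of the Aoah-/- mice and 0.399% (0.299 to 0.522) of those of the WT mouse. The Aoah-/- mean was -0.0371 percentage points from the WT value, with an SD of 0.00967 between the 2 Aoah-/- libraries, and the 3 Clopper-Pearson intervals overlapped. With no limit on the excluded transcripts the difference turned to 0.124 percentage points above WT. Among cells with at least 1 UMI of *Ptprc*, which encodes the leukocyte antigen CD45, the share was 0.955% (0.720 to 1.24), 0.974% (0.756 to 1.24) and 1.49% (1.10 to 1.97). The denominators differed, with 5760 and 6877 *Ptprc* cells in the Aoah-/- libraries against 3215 in the WT library, and the part of this number in the gap was not tested. Per 100 conventional dendritic cells there were 47.1, 53.4 and 44.9 pDC, the WT value being the lowest. The intervals here and below cover counting error only, and the plot of pDC shares shows both denominators.

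Members just inside and just outside the rule were compared on 24 pDC markers that the rule did not use, after each cell was thinned at random to 1672 UMIs. Members held a median of 12, 12 and 11 of the 24 markers, against 2, 2 and 2 in B cells, 2, 2 and 1 in cDC1 and 1, 1 and 1 in cDC2. The 4 members with a single *Siglech* UMI, all of Aoah-/- mouse 3, held a median of 2 markers, while those with more held 12, 12 and 11. Outside the rule, 3, 18 and 12 cells with *Siglech* but none of the second genes held medians of 2, 3 and 1.5 markers. The 29, 59 and 11 cells that only an excluded transcript kept out held medians of 9, 6 and 9, and 17, 27 and 9 non-members held 8 or more markers, which 53, 66 and 49 of the members did. No doublet caller was run, and limits on the excluded transcripts were the only measure against doublets.

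*Siglech*, which the rule requires, was detected in 89.5%, 92.9% and 94.3% of thinned pDC. It was found in 0.75%, 0.27% and 0.61% of thinned macrophages and in 0.05%, 0.36% and 0.03% of tubule cells, and the source of these UMIs was not tested. The gates of B cells and cDC2 required 0 *Siglech* UMIs, so its absence there was set in advance. *Ly6d*, one of the second genes of the rule, was common in B cells (85.2%, 86.3% and 84.8%) as well as in pDC (86.0%, 72.9% and 90.6%). The pDC share was the lower one in Aoah-/- mouse 3. *Ly6d* thus did not separate these classes. Tubule RNA was present in pDC: *Kap*, an abundant proximal tubule transcript, had a UMI in 78.9%, 75.7% and 83.0% of thinned pDC and in 72.6%, 85.1% and 85.1% of thinned B cells. The share was lower than in pDC in thinned cDC1 (52.6%, 57.4% and 42.1%) and cDC2 (51.8%, 63.6% and 68.8%) of each library. Before thinning it was 96.5%, 97.1% and 98.1% in pDC, 94.7%, 98.1% and 100% in cDC1 and 94.0%, 97.4% and 97.5% in cDC2. Both conventional classes were deeper than pDC, with medians of 8567.5, 10463.5 and 10112 UMIs in cDC1 and 6703, 7482 and 7273.5 in cDC2. The 13 tubule markers summed to 2482, 2583 and 3225 CPM in pDC against 36608, 43965 and 50913 CPM over all kept cells. *Lrp2*, *Slc34a1* and *Slc12a1* are among the 13 and the rule limits them, so the low pDC sum is partly set by the selection. The highest pDC sum, in WT, drew 407 of its 1012 UMIs from 1 member.

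Markers of other leukocytes were checked as whole lists. Of the 9 B cell markers, *Ms4a1*, *Pax5*, *Fcmr* and *Cd22* were among those at 0 UMIs, and the list summed to 38.0, 48.5 and 51.0 CPM, led by *Cd79b*. This list includes *Cd79a*, which the rule limits. The 8 T cell markers summed to 300.4, 381 and 245 CPM, most of it *Il7r*, with *Cd3e*, *Cd3g* and *Cd247* at 0, though the rule itself limits *Cd3g*. Of the 7 cDC1 markers *Xcr1* and *Batf3* were at 0 and the sum was 197, 211 and 127 CPM, while the 6 cDC2 markers summed to 490.3, 473 and 507 CPM, led by *Clec10a*. The 9 macrophage markers, with *Mrc1* at 0 and *C1qa* limited by the rule, summed to 1098, 909 and 819 CPM, led by *Lyz2*, against 4151, 4026 and 1976 CPM over all kept cells. Single members among the 3 deepest of each library held 130, 108 and 150 of the 318, 375 and 257 macrophage UMIs. Monocyte markers reached 5458, 5030 and 4491 CPM, of which *Plac8* alone was at 3318, 3034 and 2566 CPM, and *F13a1* was at 0. Neutrophil markers were uneven at 480, 36.4 and 325 CPM, led by *S100a9*, as were NK markers at 6.90, 136 and 6.37 CPM, led by *Nkg7*. Single members held 84 and 49 of the 139 neutrophil UMIs of Aoah-/- mouse 2 and 99 of the 102 of WT mouse 3. A single member held 24 of the 56 NK UMIs of Aoah-/- mouse 3. Endothelial markers, led by *Pecam1*, summed to 376, 179 and 76.5 CPM and erythroid markers, led by *Hbb-bs*, to 152, 104 and 398 CPM. A single member held 59 of the 109 endothelial UMIs of Aoah-/- mouse 2. Plasma cell markers were at 17.3, 19.4 and 12.7 CPM and platelet markers at 6.90, 9.70 and 9.56 CPM, while the markers of transitional or pre-dendritic cells summed to 162, 179 and 153 CPM, led by *Klf4*. The part of these transcripts in the results was not tested.

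To describe pDC beyond the genes that chose them, their UMIs were summed per library and set against those of conventional dendritic cells of type 1 (cDC1, 38, 54 and 38 cells with *Xcr1* or *Clec9a*), type 2 (cDC2, 83, 77 and 80 cells with *Cd209a*) and B cells (715, 343 and 368 cells with *Cd79a* and *Ms4a1*). The 12 sums entered 1 edgeR quasi-likelihood fit with library as a term. All 16 genes used by the 4 gates were left out, and 6679 genes were tested at a Benjamini-Hochberg adjusted p under 0.05. Log2 fold changes are positive where pDC were higher and carry their standard error (SE). Against cDC1, 1028 genes (15.4% of those tested) were higher and 1108 (16.6%) lower in pDC, against cDC2 1043 (15.6%) and 1204 (18.0%), and against B cells 1057 (15.8%) and 973 (14.6%). Without Aoah-/- mouse 3 the numbers higher fell to 615, 605 and 668 against cDC1, cDC2 and B cells, and the number lower than in B cells to 613. Of the 422 calls of members of the gene lists below, 81 of the 418 that could be tested were lost without Aoah-/- mouse 3, 35 of 417 without Aoah-/- mouse 2 and 47 of 422 without WT mouse 3. In all 3 contrasts 428 genes (6.41%) were higher and 267 (4.0%) lower. The contrasts share the pDC sums, and genes of a lineage travel with the genes of its gate, so the counts of lineage markers check the label and are no separate evidence.

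**Figure D2:**
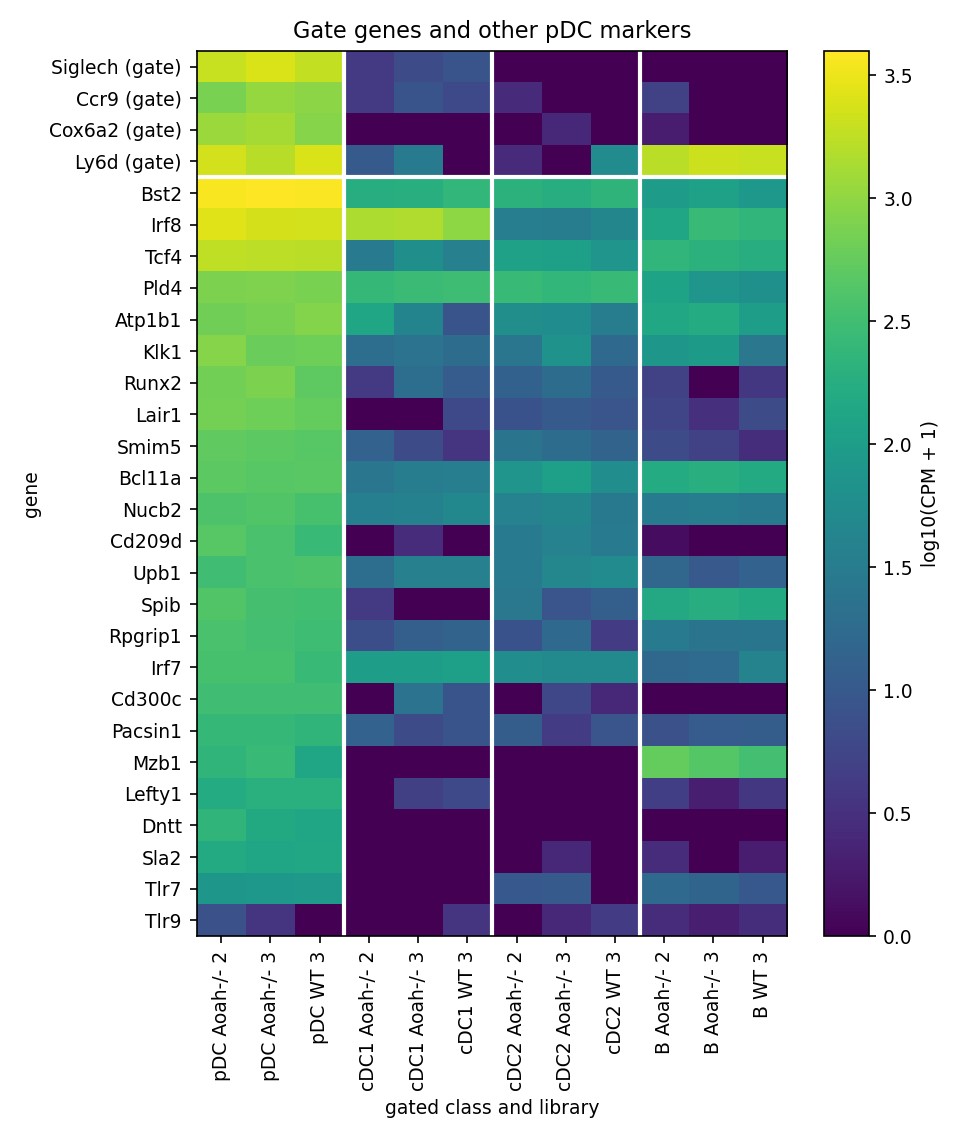
Heat map of log10(CPM + 1) for the 4 rule genes and the 24 other pDC markers (rows) in pDC, cDC1, cDC2 and B-gated cells of the 3 libraries (columns). The pDC columns are filled in nearly every row, *Mzb1* and *Ly6d* are also high in B cells, *Irf8* is also high in cDC1, and *Tlr9* is near 0 throughout.

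The label held on the markers outside the rule. Of the 23 that could be tested, all 23 were higher than in cDC1 and than in cDC2, and 22 higher than in B cells, *Mzb1* being lower there. The median log2 fold change was 4.86, 4.31 and 3.67 against cDC1, cDC2 and B cells, beside 0.04, 0.04 and -0.04 over all genes tested, and it stayed at these values with the genes that had 0 UMIs in a comparison class set to their lower bound. *Bst2* (tetherin, which holds budding virions at the membrane and is the antigen of common pDC antibodies) was at 3680.3, 3982 and 3761 CPM in pDC and between 83.0 and 239 CPM in cDC1, cDC2 and B cells, and macrophages held 269.8, 462 and 386 CPM. Every pDC sum lay far above these sums, and the log2 fold change was 3.95 (SE 0.18), 3.98 (SE 0.18) and 5.07 (SE 0.19) against cDC1, cDC2 and B cells (edgeR adjusted p = 3.39e-10, 7.96e-10 and 1.40e-11). The heat map of marker levels shows the other markers by library.

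Among transcription factors, the pDC program was present in every library. *Tcf4* was at 1829.8, 1748 and 1664 CPM, with log2 fold changes of 5.01 (SE 0.22), 3.90 (SE 0.19) and 2.88 (SE 0.17) against cDC1, cDC2 and B cells. *Runx2*, which guides pDC out of the bone marrow, was at 680.1, 764 and 513 CPM in pDC and at most 18.8 CPM in any cDC1, cDC2 or B cell sum. The Ets factor *Spib* was at 414, 339.5 and 325 CPM in pDC, and in cDC1 a single UMI was found, a ratio of 442 (78.8 to 17501) by the counting interval. B cells held 147, 175 and 152 CPM, and the log2 fold change against them was 0.98 (SE 0.19). *Bcl11a*, a zinc-finger factor of the lymphoid and pDC lineages, was higher than in all 3 classes by 3.63 (SE 0.21), 2.32 (SE 0.17) and 1.28 (SE 0.15). *Irf8*, needed by cDC1 as well, was at 2645, 2364 and 2231 CPM in pDC and 1432, 1493 and 975 CPM in cDC1, a log2 fold change of 0.58 (SE 0.20, edgeR adjusted p = 0.0389). That call was lost without Aoah-/- mouse 3 (edgeR adjusted p = 0.116), without WT mouse 3 (0.114) and under DESeq2 (0.0810).

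Several factors of conventional dendritic cells were lower in pDC, and others were not. *Id2* was at 41.4, 41.2 and 89.2 CPM in pDC against 507, 587 and 612 CPM in cDC1 and 157, 151 and 146 CPM in cDC2, with log2 fold changes of -3.68 (SE 0.33) and -1.69 (SE 0.34). Against B cells it missed the threshold (edgeR adjusted p = 0.105). Both Aoah-/- values of *Id2* were more than 2-fold below WT, where 11 of its 28 UMIs came from 1 cell. *Batf3*, which cDC1 need, had 0 UMIs in pDC, and *Spi1* (PU.1) was lower than in cDC1 and cDC2, with log2 fold changes of -2.72 (SE 0.18) and -2.87 (SE 0.17). The monocyte and cDC2 factor *Klf4* was lower than in all 3 classes. *Irf4*, a factor of cDC2 and activated B cells, was at 31.1, 38.8 and 35.1 CPM, higher than in cDC1 (2.76, SE 0.62), a call lost without Aoah-/- mouse 3 (edgeR adjusted p = 0.0520). *Mycl* was at 58.7, 63.1 and 31.9 CPM, higher than in cDC2 (2.63, SE 0.57) and B cells (4.89, SE 0.61), with a log2 fold change of -0.72 (SE 0.41) against cDC1 (edgeR adjusted p = 0.205). *Zeb2*, which represses *Id2* in this lineage, was higher than in cDC1 (2.46, SE 0.23) and B cells (1.59, SE 0.19), and against cDC2 its log2 fold change was 0.38 (SE 0.19, edgeR adjusted p = 0.13). Of 25 factors tested, 13, 10 and 13 were higher and 6, 10 and 4 lower in pDC against cDC1, cDC2 and B cells, with medians of 0.90, -0.47 and 0.71.

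In the nucleic acid-sensing pathway, *Tlr7* and several endolysosomal genes were higher in pDC, and adaptors and cytosolic sensors were mixed. *Tlr7*, the endosomal sensor of single-stranded RNA, was at 79.4, 82.5 and 86.1 CPM in pDC. No UMI of it was found in cDC1, at least a 34.2-fold difference against a floor of 3 counts over the class, and the log2 fold change was 3.51 (SE 0.48) against cDC2 and 2.46 (SE 0.37) against B cells. *Tlr9*, the sensor of unmethylated CpG DNA, gave 2, 1 and 0 UMIs and could not be tested. Its level over the 3 pDC sums stood at the floor of 3 counts, 2.95 CPM, so at this depth its presence could not be judged.

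*Slc15a4*, the endolysosomal transporter that TLR7 and TLR9 responses of pDC need, was at 128, 114 and 98.8 CPM and higher than in all 3 classes, with log2 fold changes of 2.52 (SE 0.34), 1.02 (SE 0.27) and 0.97 (SE 0.24). Without Aoah-/- mouse 3 its calls against cDC2 and B cells were lost (edgeR adjusted p = 0.0567 and 0.0503). Also higher was *Pld4*, an endolysosomal exonuclease of single-stranded nucleic acids, at 766, 793 and 746 CPM. The lysosomal proteases *Ctsl* and *Ctsb* were at 1402, 1729 and 1374 CPM and 1357, 1421 and 1147 CPM, and *Ctsl* exceeded cDC1, cDC2 and B cells by 5.39 (SE 0.30), 4.64 (SE 0.27) and 4.06 (SE 0.24) on the log2 scale. By contrast the adaptor *Myd88* was at 44.9, 29.1 and 44.6 CPM, lower than in cDC2 (-1.22, SE 0.28), and *Irf5* at 48.3, 65.5 and 82.9 CPM, lower than in cDC1 (-2.15, SE 0.20) and cDC2 (-1.62, SE 0.20). *Tmem173* (STING), the adaptor of cytosolic DNA sensing, was at 107, 94.6 and 76.5 CPM, higher than in cDC1 (0.86, SE 0.27) and B cells (0.96, SE 0.22). Both calls were lost without Aoah-/- mouse 2 (edgeR adjusted p = 0.0973 and 0.0601), and that against cDC1 also without Aoah-/- mouse 3 (0.190) and under DESeq2 (0.0730). The RNA sensor *Ddx58* (RIG-I) was lower than in cDC2 (-1.89, SE 0.56) and B cells (-3.06, SE 0.47), but against cDC2 not without Aoah-/- mouse 3 (edgeR adjusted p = 0.0590), without WT mouse 3 (0.0917) or under DESeq2 (0.0509). *Tlr3*, a double-stranded RNA sensor typical of cDC1, gave 2 UMIs in pDC and was at 96.9, 173 and 97.7 CPM in cDC1. Of 22 genes of this list tested, 8, 7 and 8 were higher and 3, 5 and 3 lower, with medians of 0.34, 0.01 and 0.34. Of the 12 calls against cDC2, 7 were kept without Aoah-/- mouse 3.

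*Irf7*, the factor that drives interferon-alpha transcription, was at 356, 361 and 268 CPM in pDC, the WT value being the lowest. The cDC1 sums held 103, 99.8 and 108 CPM, below every pDC sum, and the log2 fold change was 1.35 (SE 0.25), 2.39 (SE 0.26) and 3.67 (SE 0.26) (edgeR adjusted p = 0.000555, 2.49e-06 and 1.95e-08).

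UMIs assigned to interferon genes themselves were nearly absent from pDC. Of the 21 interferon genes in the files, 19 had 0 UMIs in the 180 cells, among 1015771 UMIs in all, where the floor of 3 counts is 2.95 CPM. *Ifnk* gave 1 UMI in Aoah-/- mouse 2, and *Ifng* gave 3 UMIs in 1 cell of Aoah-/- mouse 3. Over all kept cells *Ifnb1* gave 18, 8 and 33 UMIs and *Ifna4* gave 1, 0 and 0, so UMIs assigned to *Ifnb1* and *Ifna4* were few in the whole digest at this time. Reads shared between *Ifna* genes may be lost in the authors' counting.

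Both chains of the receptor for type I interferon were higher in pDC. Of 16 receptor and JAK-STAT genes tested, 6, 6 and 7 were higher and 2, 4 and 2 lower, with medians of 0.44, 0.32 and 0.52. Without Aoah-/- mouse 3 only 4 of the 8 calls against cDC1 and 4 of the 10 against cDC2 were kept, and without Aoah-/- mouse 2 only 5 of the 9 against B cells. *Ifnar1* was at 179.5, 259 and 127 CPM and *Ifnar2* at 369, 381 and 284 CPM in pDC, with WT lowest in both, and both subunits were higher than in every comparison class. The log2 fold changes of *Ifnar2* were 1.68 (SE 0.22), 1.76 (SE 0.21) and 3.15 (SE 0.21), and those of *Ifnar1* 0.96 (SE 0.21), 1.09 (SE 0.20) and 1.08 (SE 0.19). The call of *Ifnar1* against cDC1 was lost without Aoah-/- mouse 3 (edgeR adjusted p = 0.119). *Ifngr1*, the ligand-binding chain for interferon-gamma, was at 27.6, 72.8 and 57.4 CPM and lower than in all 3, with log2 fold changes of -2.64 (SE 0.25), -2.51 (SE 0.25) and -0.73 (SE 0.26). Against B cells that call was lost without Aoah-/- mouse 2 (edgeR adjusted p = 0.444), without WT mouse 3 (0.167) and under DESeq2 (0.0714). Downstream, the signal transducer *Stat2* at 79.4, 60.6 and 41.4 CPM was higher than in cDC2 (1.07, SE 0.30) and B cells (1.10, SE 0.27), with a log2 fold change of 0.52 (SE 0.30) against cDC1 (edgeR adjusted p = 0.204). Both calls of *Stat2* were lost without Aoah-/- mouse 2 (edgeR adjusted p = 0.0750 and 0.0938) and without Aoah-/- mouse 3 (0.0812 and 0.0555), and that against cDC2 also under DESeq2 (0.0507). *Ptpn6* (SHP-1), a phosphatase that dampens this signalling, was at 363, 429 and 430.3 CPM and higher than in all 3, though against cDC2 not without Aoah-/- mouse 3 (edgeR adjusted p = 0.0533).

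**Figure D3:**
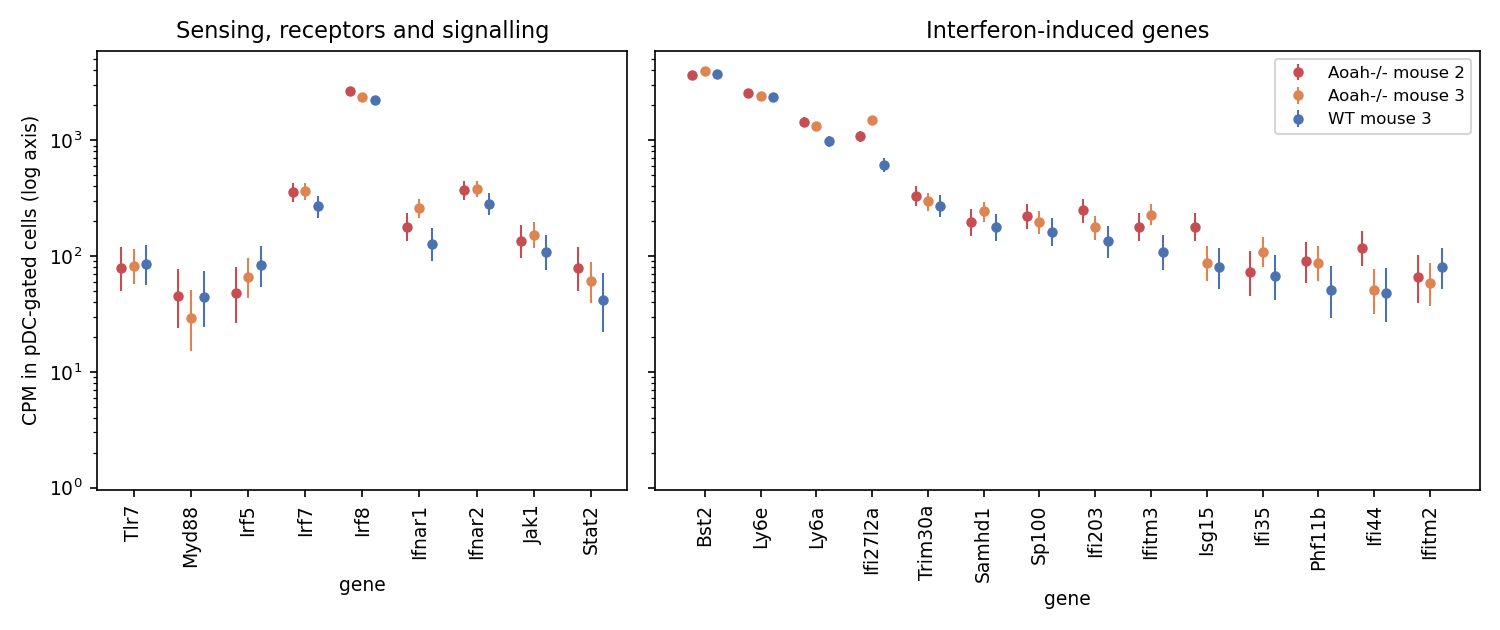
Levels of interferon pathway genes in pDC of each library, in CPM on a log axis, with exact Poisson 95% intervals as whiskers. The left panel shows sensing, receptor and signalling genes and the right panel further interferon-induced genes at 50 CPM or more over the 3 libraries. *Bst2* and *Ly6e* lie above 2000 CPM in every library, and *Isg15* spreads from 79.7 to 179.5 CPM.

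Interferon-induced genes as a list were at 11738, 11820 and 9647 CPM in pDC (exact Poisson 95% intervals 11347 to 12140, 11490 to 12157 and 9307 to 9997). The same sums were 3906, 4502 and 4909 CPM in cDC1, 8584, 7487 and 7259 CPM in cDC2 and 4889, 5595 and 5151 CPM in B cells. Without *Bst2*, itself a pDC marker, the sums were 8058, 7838 and 5886 CPM in pDC and 8378, 7311 and 7044 CPM in cDC2, so pDC were then the higher class in Aoah-/- mouse 3 alone. They stayed above cDC1 (3734, 4325 and 4670 CPM) and B cells (4791, 5483 and 5068 CPM). Gene by gene the list was mixed: of 36 members tested, 6, 8 and 11 were higher and 8, 13 and 8 lower in pDC than in cDC1, cDC2 and B cells, with medians of -0.11, -0.38 and 0.44. Of the 18 calls against B cells that could be tested without Aoah-/- mouse 3, 11 were kept. The sum was carried by a few abundant members, *Bst2*, *Ly6e*, *Ly6a* and *Ifi27l2a*.

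*Ly6e*, a surface protein that restricts coronavirus entry, was at 2541, 2396 and 2358 CPM and higher than in cDC1 (0.87, SE 0.15) and cDC2 (1.57, SE 0.15). *Ly6a* (Sca-1) was at 1433, 1329 and 975 CPM, with 3.56 (SE 0.39) and 3.36 (SE 0.37) against cDC1 and cDC2, while against B cells it missed the threshold (edgeR adjusted p = 0.0629). *Ifitm3*, an endosomal restriction factor, was at 179.5, 228 and 108 CPM in pDC against 2739, 2679 and 2546 CPM in cDC2, lower by a log2 fold change of -4.21 (SE 0.36). *Isg15*, a ubiquitin-like modifier, was at 179.5, 87.3 and 79.7 CPM and came from 14, 11 and 6 cells. *Samhd1*, a dNTP hydrolase, was lower than in all 3 classes, but without WT mouse 3 not than in cDC1 or B cells (edgeR adjusted p = 0.226 and 0.156). With 0 UMIs of the excluded transcripts all 3 of its calls were lost, with log2 fold changes of -0.10, -0.30 and -0.45 (edgeR adjusted p = 0.828, 0.356 and 0.135).

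Between genotypes the sum of the list was higher in both Aoah-/- libraries than in WT, a log2 ratio of 0.29 with an SD of 0.01 between the 2 libraries, with no test possible. That SD rests on 2 sums whose counting intervals overlap, so it says little of the spread between mice. The same ratio over all kept cells was 0.30. In pDC it was 0.12 without the 6 members above 10000 UMIs, a setting chosen after the data had been seen, and 0.43 without *Bst2*. Of the 20 members that were high enough to be compared (at least 10 UMIs and 50 CPM), 16 had both Aoah-/- values above WT and 1 had both below, none by 2-fold or more, beside 34.0% above and 36.7% below among the 3517 pDC genes that met the same minimum. Cell by cell, thinned pDC held a median of 19, 18 and 18 UMIs of the list, and ranged from 4 to 51, 3 to 62 and 5 to 50. Without *Bst2* the medians were 12, 12 and 10 UMIs in pDC and 13, 10 and 10 in cDC2.

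**Figure D4:**
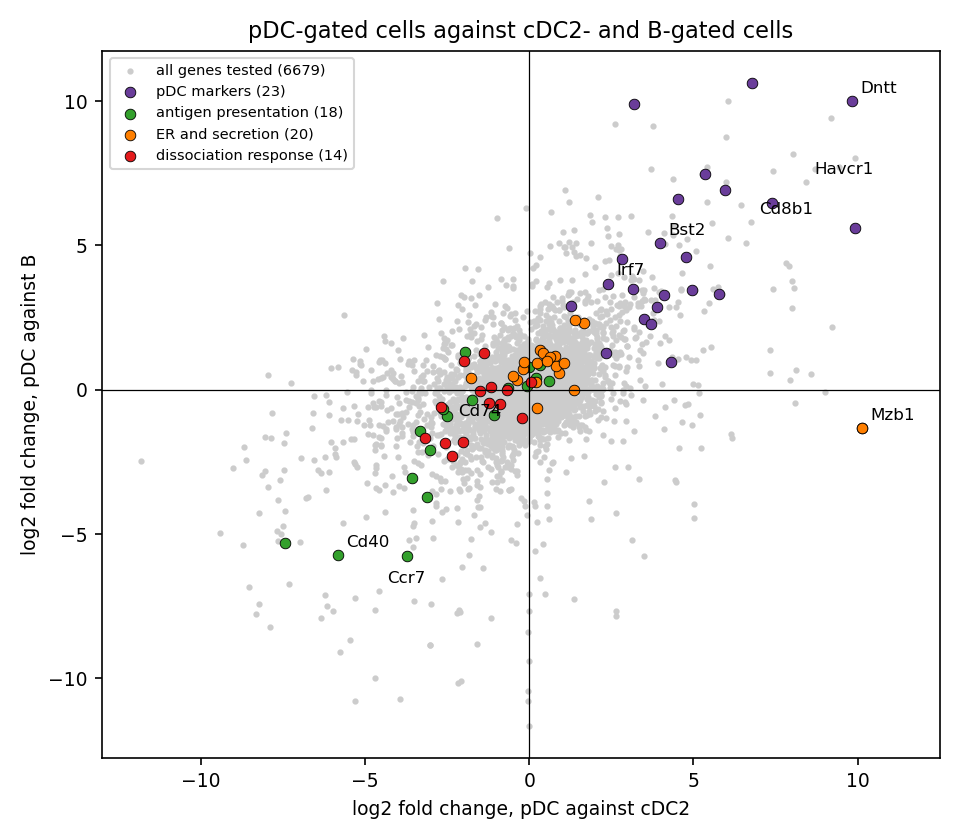
Log2 fold change of pDC against cDC2 (horizontal) and against B cells (vertical) for the 6679 genes tested (grey), with the pDC markers, antigen presentation, endoplasmic reticulum and dissociation-response lists in colour (*Mzb1*, in 2 of the lists, is drawn with the endoplasmic reticulum genes). pDC markers sit at the upper right apart from *Mzb1*, antigen presentation genes mostly left of 0, and 0 dissociation genes were called higher in pDC in either contrast.

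Surface receptors of the inhibitory and ITAM-linked kind were mostly higher in pDC. Of 19 tested, 14, 14 and 15 were higher and 3, 4 and 3 lower than in cDC1, cDC2 and B cells, with medians of 3.95, 3.20 and 5.11. *Tyrobp* (DAP12), the signalling partner of Siglec-H, was at 4454, 4690.1 and 4733 CPM, higher by 2.29 (SE 0.22), 1.06 (SE 0.21) and 4.96 (SE 0.25). The collagen receptor *Lair1* was at 694, 635 and 555 CPM in pDC and at most 9.62 CPM in any cDC1, cDC2 or B cell sum. *Cd300c* was at 311, 310.4 and 309 CPM in pDC, a narrow spread over mice, and had 0 UMIs in B cells, at least a 543-fold difference. *Lag3*, an inhibitory receptor for MHC class II, was at 107, 119 and 172 CPM, the WT value being the highest.

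Several genes better known from lymphocytes were higher too. *Cd4* was at 176, 216 and 153 CPM and *Cd8b1* at 211, 259 and 233 CPM, the latter in 19, 27 and 22 cells, with 0 UMIs in cDC1 (at least 98.1-fold), 3 UMIs in cDC2, a ratio of 143 (48.5 to 701), and a log2 fold change of 5.81 (SE 0.37) against B cells. *Cd8a* was at 82.9, 46.1 and 54.2 CPM, *Cd7* at 494, 468 and 462 CPM and *Il7r* (the interleukin-7 receptor) at 214, 323 and 191 CPM, all higher than in the 3 classes. *Dntt*, the terminal transferase of lymphoid progenitors, was at 224, 155 and 131 CPM in 33, 36 and 20 cells and had 0 UMIs in cDC1, cDC2 and B cells, at least 69.2-, 101- and 293-fold, though DESeq2 did not call it in any contrast (DESeq2 adjusted p = 0.158, 0.118 and 0.0681). Of the 8 T cell markers, 5 were detected in the same cells, and *Cd3e* and *Cd247* were at 0 UMIs. The list summed to 300, 381 and 245 CPM, against 180, 269 and 148 CPM over all kept cells. *Il7r* gave 62, 133 and 60 of the 87, 157 and 77 UMIs of the list.

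Homing and growth factor receptors were mixed, with 6, 5 and 9 of 17 higher and 4, 6 and 4 lower, and medians of -0.03, 0.34 and 1.57. *Selplg*, a selectin ligand, was at 556, 577 and 577 CPM and the integrin chain *Itgal* at 162, 218 and 159 CPM, both higher than in all 3 classes, *Itgal* against cDC1 not without Aoah-/- mouse 3 (edgeR adjusted p = 0.0538). *Ccr2*, the receptor for the monocyte chemokine CCL2, was at 224, 177 and 76.5 CPM, lower than in cDC1 (-1.67, SE 0.24) and cDC2 (-1.74, SE 0.24) and higher than in B cells (3.78, SE 0.31), with both Aoah-/- values more than 2-fold above WT. *Ccr7*, which takes mature dendritic cells to lymph nodes, had 5 UMIs in pDC (3.45, 7.28 and 3.19 CPM), lower than in all 3 by log2 fold changes of -4.79 (SE 0.82), -4.59 (SE 0.81) and -6.99 (SE 0.67). The growth factor receptors *Kit* and *Csf2ra* were lower than in cDC1 and cDC2. *Flt3*, the receptor for the main dendritic cell growth factor, was at 89.8, 99.4 and 95.6 CPM and was not tested because a gate used it.

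Antigen presentation genes were mostly lower in pDC. Of 18 genes tested, 1, 1 and 4 were higher and 15, 13 and 10 lower than in cDC1, cDC2 and B cells, with medians of -1.89, -2.24 and -0.77. The class II chain *H2-Ab1* was at 2023, 2685 and 1711 CPM in pDC against 10488, 10609.8 and 11569.8 CPM in cDC2, a log2 fold change of -2.62 (SE 0.18). *Cd74*, the invariant chain and a receptor for the cytokine MIF, was at 3925, 4535 and 3592 CPM, with log2 fold changes of -2.19 (SE 0.15), -2.41 (SE 0.15) and -1.19 (SE 0.14), and no pDC sum reached the lowest cDC1, cDC2 or B cell sum. The transactivator *Ciita* was at 3.45, 17.0 and 19.1 CPM and lower than in all 3. Of the class I genes, *H2-K1* at 2141, 2122 and 2027 CPM was higher than in cDC1 (0.64, SE 0.14) and cDC2 (0.60, SE 0.14), and *B2m* at 2655, 2743 and 2304 CPM higher than in B cells (0.41, SE 0.12). Without Aoah-/- mouse 3 the *H2-K1* calls were lost (edgeR adjusted p = 0.0536 and 0.135), and the *B2m* call was lost without that mouse (0.208) or Aoah-/- mouse 2 (0.103).

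Costimulatory genes were at or near 0. *Cd80* had 0 UMIs in pDC, at least 4.37-, 9.52- and 2.71-fold lower than in cDC1, cDC2 and B cells, and *Cd40* had 1 UMI. The *Cd80* call against B cells was lost without Aoah-/- mouse 3 (edgeR adjusted p = 0.0687). *Cd86* was at 17.3, 7.28 and 12.7 CPM and lower than in all 3, with log2 fold changes of -4.46 (SE 0.29), -3.56 (SE 0.30) and -3.05 (SE 0.31). The activation marker *Cd83* was at 24.2, 24.3 and 9.56 CPM against 897, 752 and 857 CPM in cDC2 (-5.67, SE 0.30). Of 6 genes of the MIF and CD74 axis, 2, 1 and 1 were higher and 1, 1 and 2 lower, with medians of 0.53, 0.04 and -0.51: *Mif* was at 169, 155 and 249 CPM and passed the test in none of the 3 contrasts, and *Cd44*, the signalling chain of the CD74 receptor, was at 452, 352 and 354 CPM and higher than in all 3. Its call against cDC2 was lost without Aoah-/- mouse 2 (edgeR adjusted p = 0.140) and under DESeq2 (0.0510).

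Genes of the secretory apparatus were more often higher than lower in pDC. Of 20 endoplasmic reticulum genes, 8, 9 and 13 were higher and 2, 2 and 1 lower, with medians of 0.56, 0.47 and 0.88. Without Aoah-/- mouse 3 only 4 of the 10 calls against cDC1 and 6 of the 11 against cDC2 remained, and without Aoah-/- mouse 2 only 6 of the 10 against cDC1. *Xbp1*, the factor that expands the secretory compartment, was at 397, 318 and 341 CPM, higher by 1.78 (SE 0.23), 1.66 (SE 0.21) and 2.32 (SE 0.21). *Mzb1*, a chaperone of antibody-secreting and marginal zone B cells, was at 224, 274 and 131 CPM in pDC and had 0 UMIs in cDC1 and cDC2 (at least 89.1- and 130.4-fold). B cells held 564, 447 and 339 CPM, above each pDC sum, a log2 fold change of -1.32 (SE 0.19). The chaperone *Hsp90b1* was higher than in all 3, though against cDC1 not without Aoah-/- mouse 3 (edgeR adjusted p = 0.116). *Hspa5* (BiP) was slightly lower than in cDC1 (-0.39, SE 0.14) and cDC2 (-0.38, SE 0.13). These calls were lost without any 1 of the libraries (edgeR adjusted p between 0.0827 and 0.262), with no library term and without the members above 10000 UMIs.

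Of 10 cytokine and chemokine genes tested, 1, 1 and 2 were higher and 6, 6 and 0 lower, with medians of -2.65, -4.56 and 0.67, or -2.65, -3.02 and 0.55 with genes at 0 UMIs set to their bound. Of the 2 calls against B cells, 1 was kept without Aoah-/- mouse 2. *Ccl4*, an inflammatory CC chemokine, was at 2382, 2638 and 1928 CPM in pDC, detected in 50, 65 and 47 of them. It was higher than in cDC1 (2.29, SE 0.21), cDC2 (1.91, SE 0.20) and B cells (5.80, SE 0.25), and the lowest pDC sum lay above the highest cDC1, cDC2 or B cell sum. *Il12b* had 0 UMIs in pDC, *Tnf* was at 3.45, 7.28 and 6.37 CPM and *Cxcl9* at 0, 4.85 and 0 CPM, each lower than in cDC1 and cDC2. The *Tnf* call against cDC1 was lost without Aoah-/- mouse 2 (edgeR adjusted p = 0.144) and without WT mouse 3 (0.0688), and the *Il12b* call against cDC2 under DESeq2 (0.432) and with no library term (0.218). Of 12 cell cycle genes, 9, 9 and 2 were lower and 0 higher, with medians of -2.54, -2.58 and -0.83. Leaving out Aoah-/- mouse 2 or Aoah-/- mouse 3 kept 1 of the 2 calls against B cells. After thinning, 0, 3 and 1 pDC held a UMI of *Mki67*, *Top2a*, *Birc5* or *Cdk1*, against 9, 13 and 11 cDC2. Of 14 genes of the response to dissociation, 11, 11 and 7 were lower and 0 higher, with medians of -1.26, -1.44 and -0.46. The summed level of that list in pDC was 8393, 5954 and 6540 CPM, so it moved with the library and its part in the contrasts was not tested. Of the 3 genes of LPS recognition that could be tested, 2, 3 and 1 were lower and 0 higher: *Cd14* was at 17.3, 12.1 and 15.9 CPM, lower than in cDC1 and cDC2, and *Aoah* gave 0, 0 and 1 UMI.

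Genes were also ranked whether or not they were in a list. The 25 genes with the largest smallest fold over the 3 contrasts, among the 428 higher in all, were led by *Dntt*, *Klk1b27*, *Sh3bgr*, *D13Ertd608e*, *Atp2a1*, *Ccdc162*, *Grm8* and *Havcr1*. *Dntt*, *Runx2* and *Lair1* are among the list members in this set. *Sh3bgr* was at 135, 235 and 169 CPM in 24, 45 and 28 cells, with 0 UMIs in cDC1 and cDC2. *Atp2a1* (SERCA1, the calcium pump of fast muscle) was at 128, 146 and 115 CPM in 24, 37 and 23 cells, also with 0 UMIs in both conventional classes (at least 54.1- and 79.2-fold). *Lrp8*, an apolipoprotein E and reelin receptor, was at 189.9, 182 and 194 CPM and had 0 UMIs in B cells (at least 329-fold), and the ADP receptor *P2ry13* was at 44.9, 75.2 and 47.8 CPM.

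*Havcr1* (chr11:46735080-46779578, plus strand, mm10) encodes KIM-1, or TIM-1, which in this organ is the standard marker of injured proximal tubule. It was at 48.3, 70.3 and 73.3 CPM in pDC, in 12, 21 and 21 cells. No UMI was found in cDC1 or cDC2 (at least 26.9- and 39.3-fold) and 1 in B cells, a ratio of 342 (59.2 to 13691) by the counting interval. After thinning, 8.77%, 10.0% and 7.55% of pDC held a UMI of it, against 0.31%, 0.57% and 0.30% of the cells gated as tubule. Injured tubule cells were not gated as a class of their own, so these shares do not compare pDC with injured tubule. The source of the *Havcr1* UMIs in pDC was not tested.

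*Klk1* and its near copy *Klk1b27*, kallikrein serine proteases, were at 894, 597 and 631 CPM and 155, 112 and 63.7 CPM. *Klk1* had a UMI in 49.1%, 45.7% and 45.3% of thinned pDC and in 12.8%, 23.8% and 9.15% of thinned tubule cells, where it is also made. The *Klk1* level in tubule cells was 429, 627 and 307 CPM, above that of pDC in Aoah-/- mouse 3. Macrophages held 77.3, 479 and 30.9 CPM. Reads of near-identical families, such as these kallikreins and the *Ly6*, *H2*, *Ifitm*, *Cd209* and *Ifna* genes, may be split or lost in the authors' counting. Their levels are less certain.

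The 10 genes at the other end, lower than in all 3 classes, were *Il4i1*, *Nab2*, *Pxdc1*, *Rasgrp3*, *Cd80*, *Scd1* and *Pde3b*, each with 0 UMIs in pDC, and *Cd40*, *Cd83* and *Ccr7*. *Il4i1*, a phenylalanine oxidase of mature dendritic cells, was at 49.6 CPM in cDC2 (at least 16.8-fold higher there). *Scd1*, the stearoyl-CoA desaturase, was at 298 CPM in B cells (at least 101-fold).

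Between genotypes, 50 of the 3517 pDC genes compared (1.42%) were at least 2-fold higher and 67 (1.91%) at least 2-fold lower in both Aoah-/- libraries than in WT, as a description of 3 mice. Single cells weighed on the lower side. A higher gene had to be high in both Aoah-/- libraries, and a lower gene only in the single WT library. A WT barcode could thus make a gene lower by itself, so the sides cannot be compared in this. For 37 of the 67 lower genes, but 4 of the 50 higher genes, more than 50% of the UMIs in at least 1 library of the higher group came from 1 barcode, and for 31 of the 37 this was the WT member with 25683 UMIs, the deepest pDC of all. Without the 6 members above 10000 UMIs, the counts were 55 higher and 26 lower. That barcode held 7 *Siglech* UMIs and 19 of the 24 markers, together with 407 UMIs of tubule markers and 99 of neutrophil markers.

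**Figure D5:**
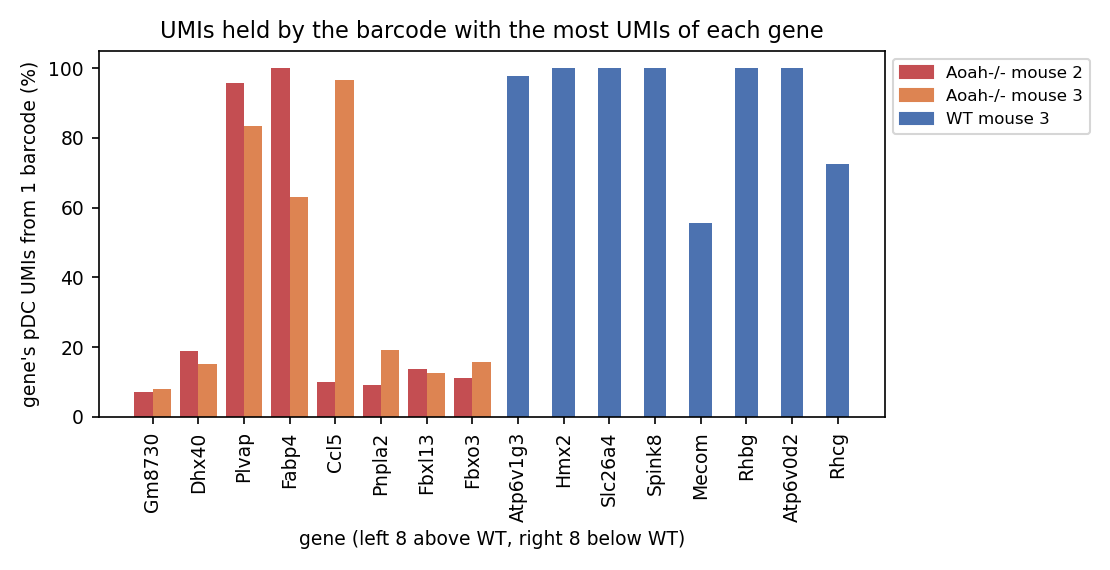
Share of a gene's pDC UMIs that came from the barcode with the most, in percent, for the 16 genes named between genotypes. The genes lower in the Aoah-/- libraries are mostly near 100%, the lowest being *Mecom* at 55.6%.

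Of the 8 genes named by rule on that side, *Atp6v1g3*, *Hmx2*, *Slc26a4*, *Spink8*, *Rhbg*, *Atp6v0d2*, *Mecom* and *Rhcg*, several are acid and base transporters of intercalated cells of the collecting duct. *Atp6v1g3*, a proton pump subunit, was at 3.45, 4.85 and 596 CPM, and 183 of its 187 WT UMIs came from the barcode just described. In the other direction the named genes were *Gm8730*, *Dhx40*, *Plvap*, *Fabp4*, *Ccl5*, *Pnpla2*, *Fbxl13* and *Fbxo3*. Most UMIs of the endothelial genes *Plvap* and *Fabp4* came from single barcodes in both Aoah-/- libraries. The lymphocyte chemokine *Ccl5*, at 34.5, 371 and 6.37 CPM, was uneven: 148 of its 153 UMIs in Aoah-/- mouse 3 came from 1 cell, while the 10 UMIs of Aoah-/- mouse 2 came from 10 cells. In the plot of single-barcode shares *Dhx40*, *Fbxl13* and *Fbxo3* were spread over several cells.

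*Fbxl13* and *Fbxo3*, F-box subunits of ubiquitin ligases, were at 76.0, 58.2 and 15.9 CPM in 17, 20 and 4 cells and at 62.1, 46.1 and 12.7 CPM in 17, 16 and 4 cells. *Dhx40*, a putative RNA helicase, was at 55.2, 48.5 and 6.37 CPM in 13, 16 and 2 cells. For these 3 genes both Aoah-/- values lay well above WT, and with 1 WT mouse the difference cannot be set against the spread between WT mice. The predicted gene *Gm8730* was at 197, 182 and 25.5 CPM in pDC and at 104, 85.2 and 14.2 CPM over all kept cells, so its pattern was shared by the whole digest. Among the pDC markers outside the rule, 15 of 23 had both Aoah-/- values above WT and 4 both below, beside 34.0% above and 36.7% below among all 3517 genes compared, and none differed by 2-fold. Over the other lists, *Ikzf2*, *Ccr2* and *Ccl5* were at least 2-fold above WT in both Aoah-/- libraries, and *Id2* and *Spp1* (osteopontin) at least 2-fold below. *Spp1* was at 173, 131 and 357 CPM, and 84 of its 112 WT UMIs came from 1 cell.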

How the data were processed

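Kidney cells of 2 Aoah-/- mice and 1 WT mouse were profiled with the Chromium 3′ v2 kit. The authors deposited UMI counts per gene and barcode for 27998 genes, not normalized. The submitters' processing notes name Cell Ranger 3.1.0, STAR, Seurat 4.2.0 and mm10, while the matrix headers name Cell Ranger 6.1.2. Starting from these counts, barcodes were filtered to one common lowest total, gated by UMI counts and summed per library and class. Levels are CPM with exact Poisson 95% intervals, and shares have Clopper-Pearson 95% intervals (scipy 1.17.1). Classes were compared with edgeR 4.0.16 in R 4.3.3 (quasi-likelihood, TMM, filterByExpr, library as a term, 12 sums, 6 residual degrees of freedom), with Benjamini-Hochberg adjustment over the 6679 genes tested. Cells were thinned with random seed 1. Each SE is the log2 fold change divided by the square root of its F statistic. A floor is 3 counts. The replicates are single mice, cells are not replicates, and genotypes were compared by value only. The fit was tested on simulated counts.

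Named were the rule genes, list members at 50 CPM or more in pDC or defining a list, the first 25 genes higher and 10 lower in all 3 contrasts ranked by the smallest of their fold changes, and the first 8 per direction between genotypes (at least 10 UMIs, 50 CPM and 2-fold). Genes below 50 CPM named beside these, such as *Myd88*, *Cd86*, *Kit* and *Ciita*, were chosen after their values were seen. Members and gene lists were chosen with earlier results of these data known. Alternatives included DESeq2 1.42.0, other scaling and filters, stricter and looser gates, and leaving out each library. Some genes are not reported here.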

Additional observations from a re-analysis of the deposited data

How the results depend on the processing

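The difference in pDC share (Aoah-/- mean minus WT, -0.0371 percentage points) became -0.00367 with no common lowest UMI total, -0.0206 at 20% mitochondrial UMIs or less, -0.0472 with 2 or more *Siglech* UMIs, -0.0841 with 0 UMIs of the excluded transcripts, -0.0155 when cells were gated after thinning, -0.528 as a share of *Ptprc* cells and, in an alternative added after seeing the data, -0.0235 without members over 10000 UMIs. It turned to 0.124 with no limit on the excluded transcripts. The interferon-induced list ratio (0.29) became 0.16 as a mean of per-cell CPM, 0.15 with 0 UMIs of the excluded transcripts, 0.24 at 20% mitochondrial UMIs or less, 0.43 without *Bst2* and 0.12 without members over 10000 UMIs. The cause was not tested.

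Of the genes called by edgeR, with 0 UMIs of the excluded transcripts in every class (3303 genes tested), 495, 522 and 513 were higher and 429, 520 and 538 lower in pDC than in cDC1, cDC2 and B cells. DESeq2 called 641 lower than in B cells. Leaving out 1 library (its fit has fewer sums) gave 615 to 845 higher and 809 to 1002 lower against cDC1, 605 to 861 and 852 to 1092 against cDC2, and 668 to 933 and 613 to 852 against B cells, each lowest without Aoah-/- mouse 3. For the 25 genes higher and 10 lower in all 3 contrasts, each taken in the contrast where it changed least, 349 of 366 values over the alternatives kept their direction and their side of the threshold, 17 lost the call (7 under DESeq2, *Dntt* among them) and 0 reversed. Of the 422 calls of list members over the contrasts, some of those genes included, 293 were kept under every alternative that tested them, 108 were lost on leaving out at least 1 library and 39 under DESeq2. With 0 UMIs of the excluded transcripts 53 of the 356 that could be tested were lost, among them those of *Stat2* against cDC2 and B cells, *Ifngr1* and *Slc15a4* against B cells, *Hsp90b1* and *Ifitm3* against cDC1 and *Myd88* against cDC2. *Zbp1* turned from -0.95 to 0.32 against cDC1 with 0 UMIs of the excluded transcripts (edgeR adjusted p = 0.731). The 67 genes at least 2-fold lower in both Aoah-/- libraries became 26 without members over 10000 UMIs, 10 of them shared with the 67, and 21 without the top barcode of each gene, 16 of them shared. With 1 Aoah-/- library left out, 91 to 120 genes were higher and 145 to 170 lower. No paired analysis was possible because the genotypes share only the replicate number 3. With 53 to 70 pDC per library, a gene with 0 UMIs in a library may lie as high as 7.28 to 10.4 CPM, and 1 deep barcode can set the level of a rare transcript.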
